A study of Canis lupus familiaris with 30 samples.

Results

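Transcripts of macrophages, neutrophils and dendritic cells were followed in 30 canine thyroid carcinomas. The set was a fixed list of 41 gene symbols. Of these, 34 had a row under that symbol in the deposited table of 30424 genes, and all 34 passed the filter for testing, 10 counts or more in 5 tumors or more, as did 18711 genes in all. CD14, TYROBP, ITGAX, NCF1, S100A9, CCL2 and CLEC9A, the other 7, were not analysed here.

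These genes serve the cells that engulf and kill microbes and clear dead tissue. Macrophages develop and survive under CSF1, the ligand of the receptor CSF1R, and depend on the transcription factor SPI1. Neutrophils answer to the growth factor receptor CSF3R, and dendritic cells, which take antigen to lymph nodes, arise under the receptor FLT3. PTPRC, the leukocyte common antigen, is a phosphatase on nearly all nucleated cells of the blood lineage. Tissue macrophages also express the chains of complement C1q, scavenger receptors such as CD163 and MRC1, and lysosomal enzymes such as CTSS.

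Primary tumors were taken from the thyroid gland, 1 from each of 30 dogs, and total RNA was sequenced after removal of ribosomal RNA. The labels place all of them in 1 group, tumor tissue, with no treatment, time point or normal thyroid. The study diagnosed follicular and medullary carcinomas. GEO's labels do not give the diagnosis of each tumor, so tumors were not compared by diagnosis.

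Total gene counts ran from 12288945 to 45148677 reads a tumor (median 25569678). To set tumors on 1 scale, each count was divided by a size factor (a median of ratios over the genes counted in every tumor), and the level of a gene is log2 of this normalized count after a pseudocount of 1 was added. Gene length was not taken into account, so a level can be compared between tumors for a gene but not between genes. TC538 had the smallest size factor, at 0.279, and lay far from the others on the second principal component of all tested genes outside the 34. TC1020, TC1473, TC1601, TC1936 and TC2289 stood apart from the other 25 tumors on the first component. All 7 measured genes of a list of C-cell transcripts, the hormone-secreting cells from which medullary carcinoma arises, were highest in one of these 5 tumors, where their summed normalized count was 235000 to 719000 against 46.8 to 9120 in the others. Values within the 25 are therefore given beside the results. The summed normalized count of 8 thyroid follicular genes ran from 247 in TC1088 to 7060000 in TC1869 (median 377000), and the defining transcripts of the labelled tissue were thus nearly absent from TC1088, which also held the highest normalized count of KRT14, a squamous keratin. No cell type was sorted, and in bulk tissue fewer cells of a type and less RNA per cell cannot be told apart.

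CSF1R, SPI1, the C1q chains, CD163, MRC1 and CD68 were counted in every tumor, while the transcripts that mark neutrophils and dendritic cells most narrowly were near the limit of detection in many. The CSF1R level was lowest at 9.50 in TC1123, had a median of 10.58 and was highest at 12.24 in TC1601. For PTPRC the level ran from 6.31 in TC812 through a median of 8.39 to 11.86 in TC1473, with TC1994 next at 10.68. The spread of PTPRC (SD 1.21, n = 30) was wider than that of CSF1R (SD 0.64), and the top tumor held 11.1 times the median normalized count of PTPRC against 3.16 times for CSF1R. Over the 34 genes the SD of the level had a median of 1.00, and over all tested genes 0.95, so myeloid genes as a set varied between tumors about as much as other genes did.

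**Figure D1:**
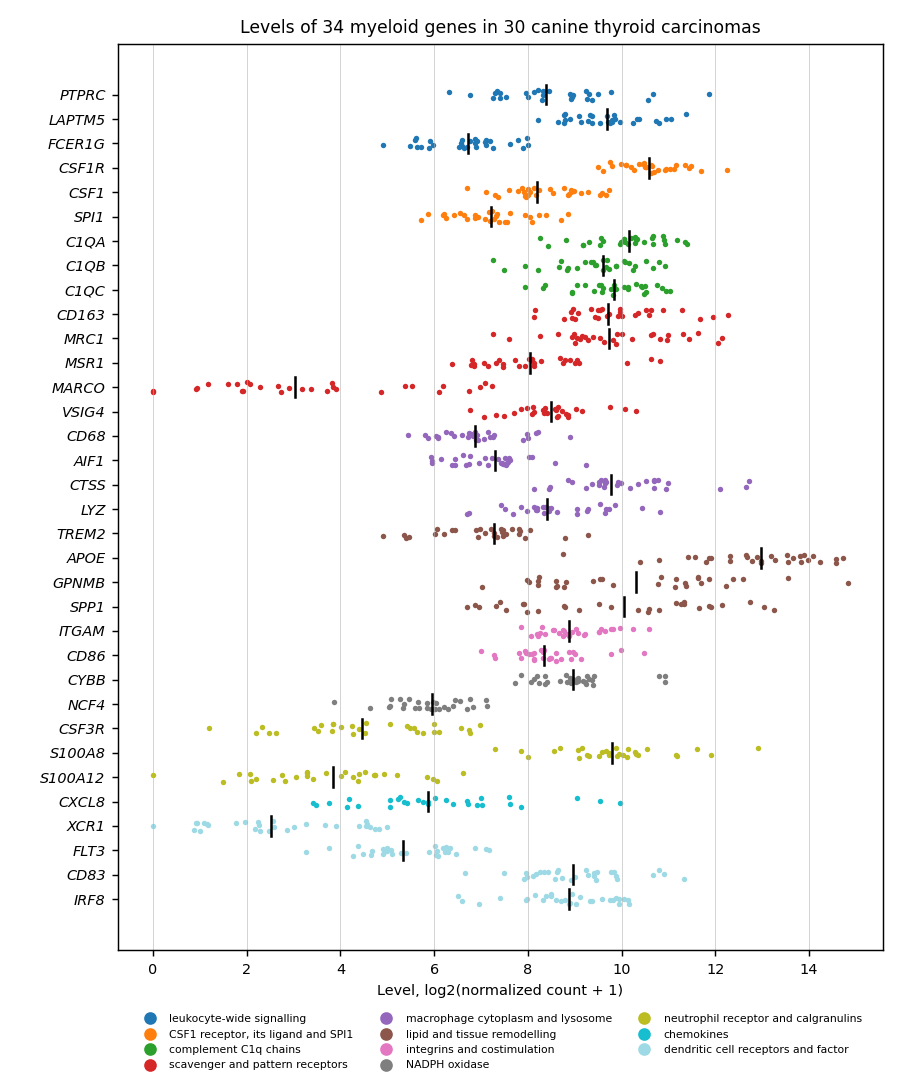
Level, log2(normalized count + 1), of each of the 34 genes on the horizontal axis, with a point for each of the 30 tumors, a black bar at the median and colours by role. Levels are not comparable between genes, and counting error adds to the spread of genes with few counts, such as MARCO. SPP1, GPNMB and MARCO cover the widest ranges, and CSF1R, ITGAM, NCF4 and CD86 narrow ones.

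The widest ranges belonged to genes of tissue remodelling and to MARCO, a scavenger receptor of certain macrophages. SPP1, the secreted matrix protein osteopontin, ran from 6.69 in TC1601 to 13.25 in TC640 with a median of 10.06 (SD 2.02). GPNMB, a glycoprotein of lysosomes and melanosomes, had a median of 10.30 and ranged from 7.03 in TC1979 to 14.83 in TC1994 (SD 1.91), where its normalized count was 21.9 times the median. MARCO was at 0 counts in 2 tumors, TC1164 and TC2289, reached 10 counts in 15 and peaked at 7.24 in TC2288 (median 3.03, SD 2.16). GPNMB is also a gene of pigment cells and SPP1 of many epithelia, so neither is limited to macrophages in tumor tissue.

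Neutrophil and dendritic cell transcripts were unevenly detected. CSF3R had a median level of 4.46, a lowest value of 1.19 in TC2289, from 1 count, and a highest of 6.98 in TC1601, and 25 of 30 tumors held at least 10 counts. S100A12, a calgranulin, reached 10 counts in 19 tumors and was highest in TC538, at 6.61 (median 3.85). S100A8, also a calgranulin of neutrophils and monocytes, was counted in every tumor, from 7.30 in TC1241 through a median of 9.80 to 12.90 in TC1601. Squamous and other epithelia can express S100A8 too.

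XCR1, the chemokine receptor of cross-presenting dendritic cells, was scarcest. It reached 10 counts in 10 of 30 tumors and had 0 counts in TC538, which allows up to 3 counts in a library of that depth. Its median level was 2.52 and its highest 4.99, in TC1088. FLT3 held at least 10 counts in 29 tumors, with levels from 3.27 in TC640 through a median of 5.34 to 7.18 in TC1936. CD83, a surface protein of mature dendritic cells, was lowest in TC538 at 6.66 and highest in TC1869 at 11.34 (median 8.96), and IRF8, a transcription factor of dendritic cells and monocytes, was highest in the same tumor, at 10.15 (median 8.88). CD83 and IRF8 are also expressed by lymphocytes. The dendritic cell part of the list therefore rests on few counts for its most specific gene and on less specific genes otherwise.

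Tumors differed in how much of the list they expressed. TC1994 was above the median of all 34 genes, with a mean difference of 1.73 on the log2 scale, and held the highest value of 5. TC1473 was above the median for 27 genes (mean difference 1.38) and held the highest value of 9, among them PTPRC, CD163, MRC1, CTSS, LYZ and CD86. TC1601 was highest for 7, which were LAPTM5, CSF1R, C1QB, C1QC, NCF4, CSF3R and S100A8, and was lowest of all for SPP1. At the other end, TC1241 was above the median for 3 genes (mean difference -0.98), TC1164 for 4 and TC1123 for 5, and TC1123 held the lowest value of 8. TC538 was mixed, with the highest MSR1, S100A12 and CXCL8 and the lowest CSF1, APOE, CD83 and XCR1.

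**Figure D2:**
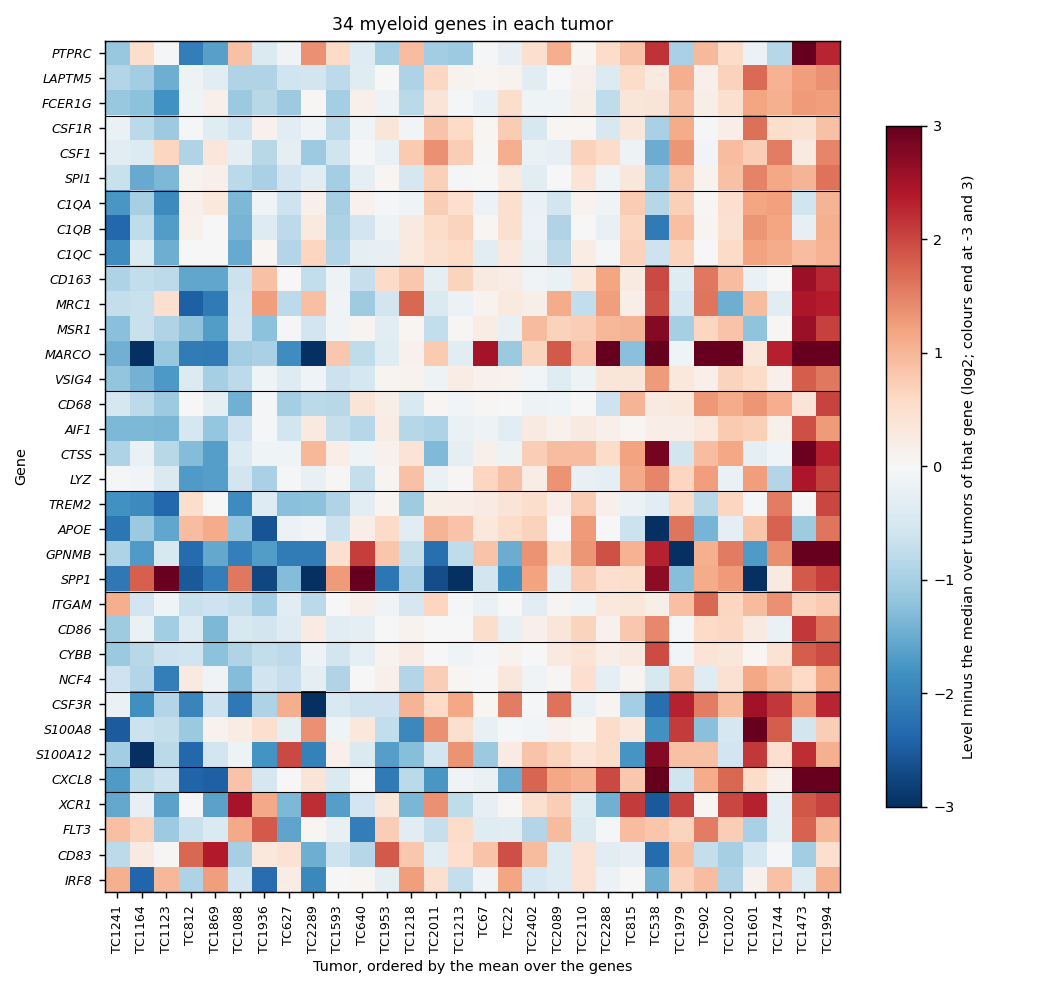
Each cell is the level of a gene (row) in a tumor (column) minus the median of that gene, in log2 units, with red above and blue below and colours ending at -3 and 3. Tumors are ordered by the mean over the genes, and lines divide the roles. TC1994 at the right is red in all 34 rows, TC1473 and TC1601 are reddest in different rows, and TC1241, TC1164 and TC1123 at the left are mostly blue.

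With no second group to compare, the list was read through 4 of its own genes. Each tested gene was fitted across the 30 tumors on the level of PTPRC, CSF1R, CSF3R or FLT3 with edgeR's quasi-likelihood test. A slope of 1 means that the log2 level of a gene rises by 1 for each 1 in the log2 level of the gene it is fitted on. Genes with a Benjamini-Hochberg adjusted p below 0.05 over all genes were called.

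CSF1R rose together with some of the macrophage genes, among them SPI1 and the C1q chains, and with the neutrophil genes CSF3R and S100A8. The macrophage genes CD163, MRC1, MSR1, MARCO, CTSS and LYZ were among those not called. With CSF1R, 15 of the other 33 genes (45.5%) rose, while 7.4% of all tested genes rose and 14.7% fell. By edgeR's test 0 of the 33 fell, with 1 at an unadjusted p below 0.05, and DESeq2 called 1. SPI1 rose with a slope of 1.12 ± 0.15 (SE, adjusted p = 4.28e-05). The complement chains rose with slopes near 1, C1QA by 0.98 ± 0.15 (adjusted p = 0.000129), C1QB by 1.09 ± 0.17 (adjusted p = 0.000171) and C1QC by 0.91 ± 0.16 (adjusted p = 0.000486). LAPTM5, a lysosomal protein of leukocytes, rose by 1.00 ± 0.14 (adjusted p = 5.15e-05). All 3 C1q chains were thus called, and so were the ligand CSF1 (0.70 ± 0.19, adjusted p = 0.00904) and the lipid genes TREM2 and APOE, with slopes of 0.99 and 1.06.

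The remaining calls on CSF1R were NCF4, a subunit of the phagocyte NADPH oxidase (0.98 ± 0.15), FCER1G, the signalling chain of Fc receptors (0.93 ± 0.17), CD68, a lysosomal membrane protein of macrophages (0.89 ± 0.20), AIF1, an actin-binding protein of macrophages (0.68 ± 0.23), VSIG4, a complement receptor of tissue macrophages (0.57 ± 0.21), and 2 neutrophil genes. CSF3R had the steepest slope, 1.55 ± 0.32 (adjusted p = 0.00159), and S100A8 rose by 1.17 ± 0.22 (adjusted p = 0.000809). Both neutrophil genes were highest in TC1601 and TC1979, which were also highest in CSF1R. Without those tumors r with CSF1R went from 0.62 to 0.41 for S100A8 and from 0.67 to 0.59 for CSF3R. VSIG4 was the weakest call (adjusted p = 0.0486). It was not called without TC1473 (adjusted p = 0.056) or without TC1994 (adjusted p = 0.0778).

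By rank all 15 of these genes passed, and so did ITGAM (rho 0.47, adjusted p = 0.0483) and XCR1 (rho 0.57, adjusted p = 0.0146). Of all tested genes 7.83% rose with CSF1R by rank and 12.0% fell. Between CSF1R and SPI1, rho was 0.82 (adjusted p = 0.00131, 100000 permutations) and Pearson's r was 0.85 (adjusted p = 0.0009). Without TC1601 and TC1979, the tumors farthest from the median of CSF1R, r was 0.82. Within the 25 tumors alike on the first component, rho was 0.86. NCF4 gave a rho of 0.85 and an r of 0.84, with an r of 0.81 without those tumors, and 0.87 in rank within the 25. In those 25 tumors 13 genes rose with CSF1R where 5.04% of all tested genes did, and AIF1 and VSIG4 were the calls that were lost.

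SPP1 pointed the other way. TC1601, with the highest CSF1R, had the lowest SPP1, and the slope of SPP1 on CSF1R was -1.14 ± 0.47 (adjusted p = 0.0787), which did not pass. Pearson's r passed, at -0.49 (adjusted p = 0.0294), and rho did not, at -0.44 (adjusted p = 0.0697). It passed without TC1473 (-1.25 ± 0.47, adjusted p = 0.0457) and without TC1994 (-1.73 ± 0.50, adjusted p = 0.0116). Scavenger receptors other than VSIG4 did not pass on CSF1R, with slopes of 0.35 ± 0.31 for CD163, 0.25 ± 0.33 for MRC1, -0.08 ± 0.34 for MSR1 and 0.05 ± 0.76 for MARCO. The standard errors leave room for sizeable slopes in either direction.

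PTPRC rose together with scavenger receptors, CTSS and CXCL8. With it, 12 of 33 genes rose and 1 fell. The share that rose, 36.4%, is to be read against 23.8% of all tested genes that rose and 15.7% that fell, a background so large that the count alone says little about myeloid genes. All 5 scavenger and pattern receptors were among the 12, CD163 (0.60 ± 0.10, adjusted p = 6.17e-05), MRC1 (0.77 ± 0.12, adjusted p = 2.73e-05), MSR1 (0.76 ± 0.09, adjusted p = 9.95e-07), MARCO (1.10 ± 0.32, adjusted p = 0.00814) and VSIG4 (0.38 ± 0.08, adjusted p = 0.000764). MARCO, with the largest adjusted p of these, reached 10 counts in only 15 tumors. Its r with PTPRC was 0.49 over all tumors and 0.34 without TC1473 and TC1994.

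CTSS, a lysosomal protease of antigen-presenting cells, followed PTPRC most closely. Its level was lowest in TC1869 at 8.13, had a median of 9.78 and was highest in TC1473 at 12.72, with TC538 next at 12.66. The slope was 0.84 ± 0.07 (adjusted p = 7.94e-10), with r 0.89 (adjusted p = 0.000224) and rho 0.81 (adjusted p = 0.00033), and r remained 0.83 without TC1473 and TC1994. CXCL8, the chemokine that draws neutrophils, had the steepest slope, 1.22 ± 0.13 (adjusted p = 1.7e-07), with r 0.84 (adjusted p = 0.000224) and rho 0.75 (adjusted p = 0.00053), and r 0.78 without those tumors. Its level ran from 3.41 in TC1869 through a median of 5.87 to 9.96 in TC538.

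CYBB, the catalytic subunit of the phagocyte oxidase, and CD86, a costimulatory ligand for T cells, both rose with PTPRC by 0.49, as did LYZ (lysozyme, 0.59 ± 0.10), GPNMB (0.98 ± 0.20) and AIF1 (0.39 ± 0.09). CD83 was the gene that fell, with a slope of -0.47 ± 0.13 (adjusted p = 0.00515). Without TC1994 a second gene fell, APOE, the lipid carrier (-0.58 ± 0.17, adjusted p = 0.00656, against -0.27 ± 0.16 and adjusted p = 0.196 over all tumors). Of the C1q chains, SPI1, CSF1R and CSF1, none passed on PTPRC, and their slopes lay between -0.10 and 0.09. SPP1 did not pass on PTPRC by its slope (0.74 ± 0.31, adjusted p = 0.0564), but passed by rho (0.56, adjusted p = 0.00677) and by r (0.57, adjusted p = 0.00485). In the 25 tumors alike on the first component, 13 genes (39.4%) rose with PTPRC, where 22.3% of all tested genes did, and SPP1 was the gene gained (0.93 ± 0.35, adjusted p = 0.0375).

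VSIG4 and AIF1 rose with both, 2 of the 12 genes on PTPRC and 2 of the 15 on CSF1R. Of all tested genes 23.8% rose with PTPRC and 7.4% with CSF1R. The share that rose with both was not counted, so the overlap cannot be set against that of other genes. Neither VSIG4 nor AIF1 kept its call on PTPRC without TC1473 and TC1994, where the slope of VSIG4 was 0.21 ± 0.11 (adjusted p = 0.155) and that of AIF1 0.20 ± 0.13 (adjusted p = 0.232). By rank VSIG4 did not pass on PTPRC over all tumors (rho 0.37, adjusted p = 0.107). Both fits use the same 30 tumors, and the difference between the slopes of a gene was not tested. Between PTPRC and CSF1R themselves rho was -0.21 (adjusted p = 0.399 over the genes fitted on PTPRC) and r was -0.15 (adjusted p = 0.552), and r was -0.40 without TC1473 and TC1994. The tumor highest in PTPRC and the tumor highest in CSF1R were different, and TC538 combined a high PTPRC, 10.56, below TC1473 and TC1994 alone, with the second-lowest CSF1R, 9.60.

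**Figure D3:**
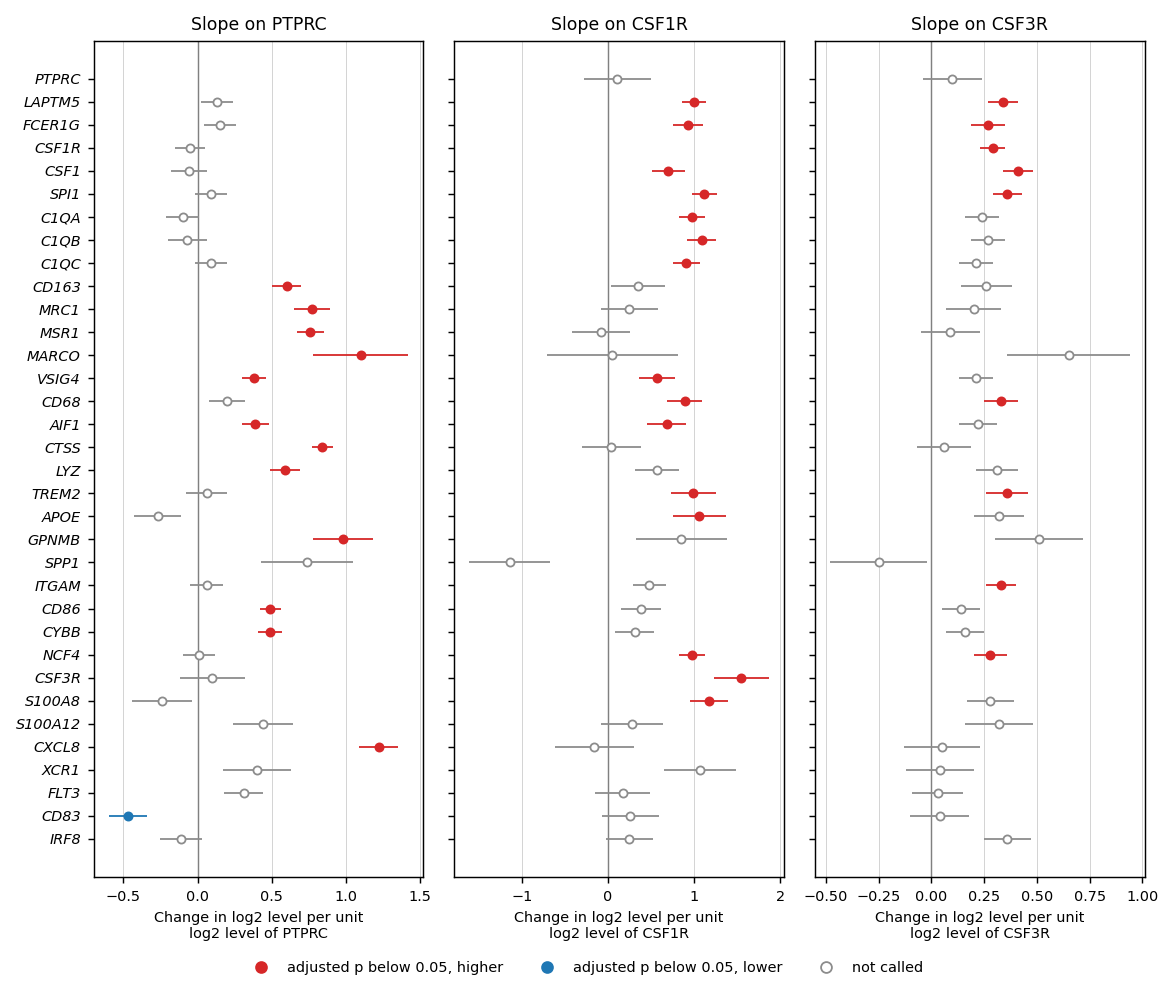
Slope and SE of each gene on the level of PTPRC, CSF1R and CSF3R over 30 tumors, in log2 units per log2 unit, with filled red (rising) or blue (falling) points where the adjusted p over all genes is below 0.05. The scavenger receptors are red on PTPRC and, apart from VSIG4, open on CSF1R, and the C1q chains, SPI1, LAPTM5 and NCF4 are the reverse.

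Pairs of genes are given only as descriptions of 30 tumors that share libraries and scaling. The division came from tests in the same tumors, so they are no further evidence for it. Some pairs across it were also high, with a rho of 0.70 for LAPTM5 and CYBB and 0.67 for LAPTM5 and CD86. C1QA and C1QB had a rho of 0.93, C1QB and C1QC 0.89, and LAPTM5 and FCER1G 0.93. The oxidase subunits CYBB and NCF4 reached 0.54, and CYBB was nearer to CD86, at 0.85. MSR1 stood at 0.82 with GPNMB and 0.85 with CTSS. The calgranulins S100A8 and S100A12 had a rho of 0.19, although both are neutrophil genes, and the dendritic cell genes XCR1 and CD83 had -0.14.

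**Figure D4:**
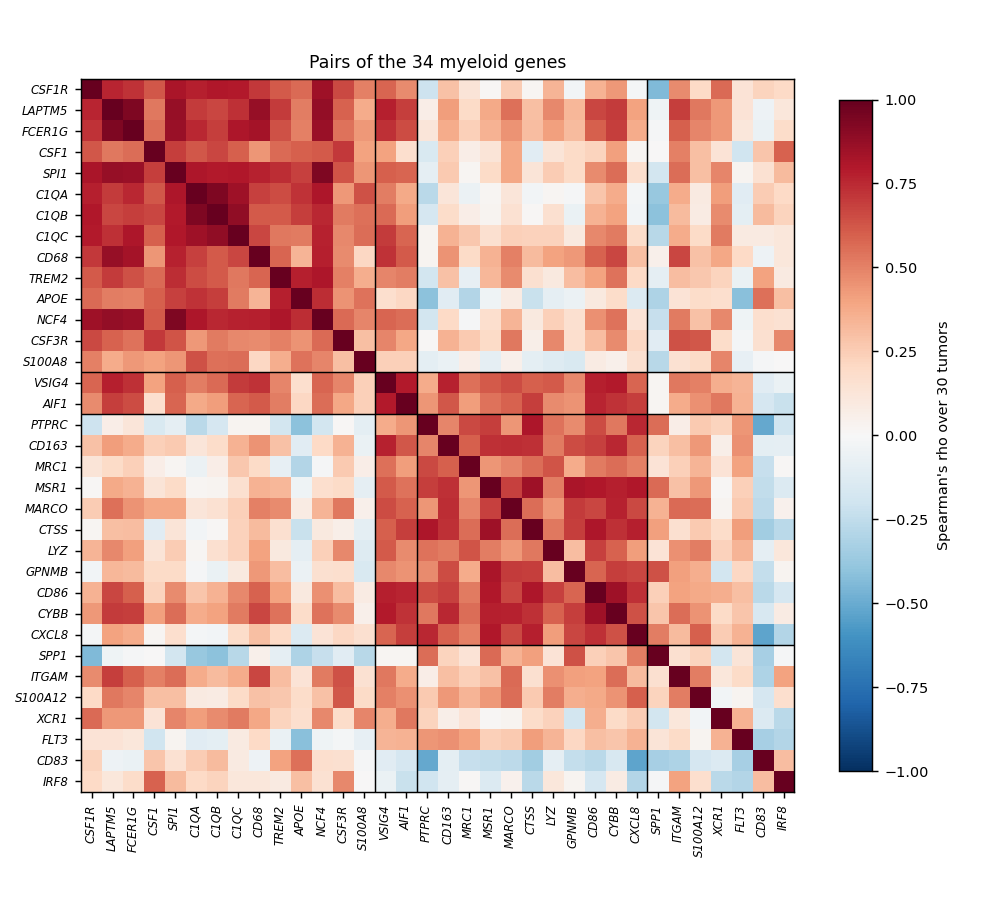
Spearman's rho over 30 tumors for each pair of the 34 genes, red for positive and blue for negative. Lines divide, from the top, CSF1R with the genes that rose with CSF1R alone of the pair CSF1R and PTPRC, the 2 that rose with both, PTPRC with those that rose with PTPRC alone, and those that rose with neither. The groups come from the tests, so red within the blocks of CSF1R and of PTPRC is no further evidence. SPP1 is blue against the C1q chains, and CD83 is blue against PTPRC and CXCL8.

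Both PTPRC and CSF1R moved with a main axis of variation of the other genes. The second principal component of 18677 tested genes outside the list held 15.7% of their variance. It fell as PTPRC rose (r -0.76, adjusted p = 0.00016, rho -0.76, adjusted p = 8e-05, over 8 relations) and rose with CSF1R (r 0.64, adjusted p = 0.00044, rho 0.67, adjusted p = 0.0002). Without TC538 and TC1473 the values of r were -0.72 and 0.71. For CSF3R r was 0.40 (adjusted p = 0.057), and for FLT3 -0.28 (adjusted p = 0.183). The log2 total count per tumor had relations with the 4 genes that did not pass, the largest with PTPRC (r -0.41, adjusted p = 0.057).

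**Figure D5:**
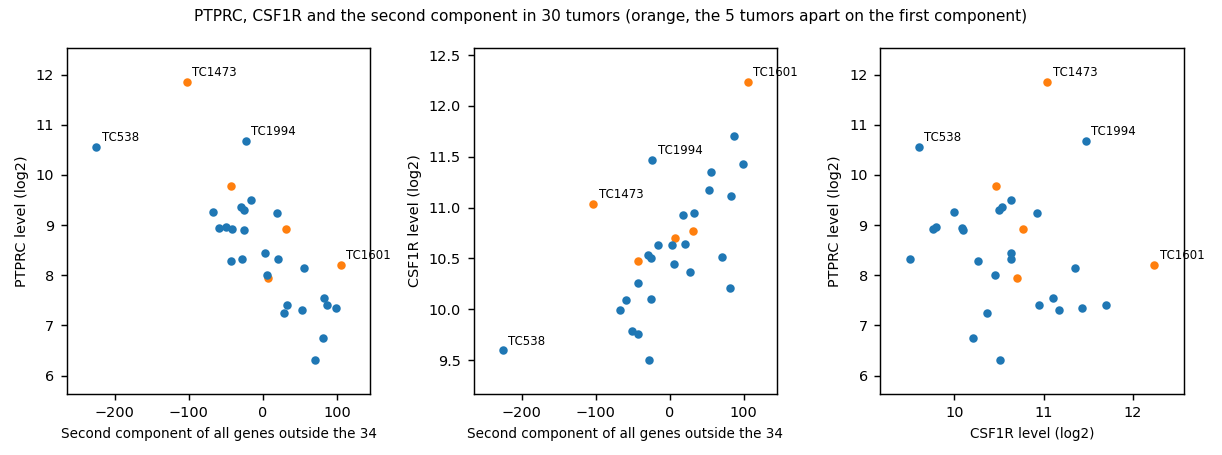
Each point is a tumor, orange for the 5 apart on the first component. PTPRC falls and CSF1R rises along the second component of all genes outside the 34 (horizontal axis, in units of summed log2 level), and the right panel sets PTPRC against CSF1R, where no common direction is seen. TC538, TC1473, TC1994 and TC1601 are labelled.

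With the first 2 components in the model, an alternative chosen after seeing the data, the division between the sets was no longer there. Of 33 genes, 20 (60.6%) rose with PTPRC and 20 (60.6%) with CSF1R, and 17 were the same. Over all tested genes 1.55% then rose with PTPRC and 1.14% with CSF1R. PTPRC itself rose with CSF1R (1.07 ± 0.22, adjusted p = 0.00712). On PTPRC, SPI1 now rose (0.74 ± 0.12, adjusted p = 0.000602), as did C1QB (0.63 ± 0.13) and C1QC (0.57 ± 0.13). MARCO (1.64 ± 0.64, adjusted p = 0.286) and CD83 no longer passed on PTPRC. On CSF1R, CD163 (1.44 ± 0.26, adjusted p = 0.00171), MRC1 (1.38 ± 0.31), MSR1 (1.21 ± 0.28) and CTSS (1.26 ± 0.22) rose, while CSF1, TREM2, APOE and S100A8 no longer passed.

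The number of calls depended on TC1994, the tumor above the median for every gene of the list, more than the slopes did. With components recomputed without it, 1 gene rose with PTPRC and 6 with CSF1R, and 29 and 50 of all tested genes were called. The 20 genes on PTPRC all kept slopes above 0, with a median of 0.56 (median SE 0.19) against 0.70 (0.15) over all tumors. On CSF1R the 20 had a median of 1.08 (0.26) against 1.23 (0.22). Without TC1473 the counts were 14 and 17, without TC538 22 and 20, and within the 25 tumors alike on the first component 7 and 14. Without components, leaving out TC1994 left 12 genes that rose with PTPRC and 15 with CSF1R.

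CSF3R rose together with a smaller set, led by CSF1. With it 9 of 33 genes (27.3%) rose, where 2.15% of all tested genes rose and 1.97% fell. By edgeR's test 0 fell, with 0 at an unadjusted p below 0.05, and DESeq2 gave 0. CSF1 rose by 0.41 ± 0.07 (adjusted p = 0.0024), with r 0.75 (adjusted p = 0.00492) and rho 0.71 (adjusted p = 0.024), and r 0.72 without TC1601 and TC2289. Of the others, SPI1 rose by 0.36 ± 0.07, LAPTM5 by 0.34 ± 0.07, ITGAM, the alpha chain of the complement receptor integrin of neutrophils and macrophages, by 0.33 ± 0.07 (adjusted p = 0.00624), and CSF1R by 0.29 ± 0.06. The others were TREM2, CD68, NCF4 and FCER1G. Besides CSF1R itself, which cannot be fitted on its own level, 7 of these 9 had also risen with CSF1R, and ITGAM had not. The share of all tested genes that rose with both was not counted.

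The other neutrophil genes were not called on CSF3R, with slopes of 0.28 ± 0.11 for S100A8 (adjusted p = 0.142) and 0.32 ± 0.16 for S100A12 (adjusted p = 0.277). TC538 decided the second of these. It had the highest S100A12 and, from 1 count, the second-lowest CSF3R, and without it the slope of S100A12 was 0.74 ± 0.15 (adjusted p = 0.0072), while NCF4 and TREM2 were lost and LYZ, CYBB, CD163 and VSIG4 were gained, for 12 genes in all. Without TC1994 5 genes rose, without TC1088 6, and within the 25 tumors 4, where 1.36% of all tested genes did. By rank 4 passed, where 0.796% of all tested genes did. With the first 2 components in the model 19 rose, where 1.59% of all tested genes did, but 5 without TC1994, 8 without TC1473 and, by edgeR's test, 0 in the 25 tumors, where 20 had an unadjusted p below 0.05 and 0 of all tested genes was called. The slopes of the 19 moved less, with a median of 0.35 over all tumors, 0.30 without TC1994, 0.34 without TC1473 and 0.31 in the 25 tumors, and stayed above 0 in each.

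With FLT3 0 of 33 genes passed edgeR's test, where 0.326% of all tested genes rose and 0.102% fell. At an unadjusted p below 0.05 there were 12 that rose and 0 that fell, and DESeq2 called 3. CD163 came closest, at 0.64 ± 0.16 (adjusted p = 0.0562), followed by PTPRC at 0.71 ± 0.19 (adjusted p = 0.0705). CD163 passed without TC1088 (0.66 ± 0.15, adjusted p = 0.0452). The other dendritic cell genes had slopes on FLT3 of 0.57 ± 0.29 for XCR1, -0.31 ± 0.22 for CD83 and -0.20 ± 0.18 for IRF8. Outside the list, CCR7, the receptor that guides mature dendritic cells to lymph nodes, rose with FLT3 (1.85 ± 0.39, adjusted p = 0.0237), the 1 call among 6 dendritic cell partners. CCR7 was near the limit of detection in many tumors. Its normalized count had a median of 5.33 and was highest in TC1088, at 420, and 2 tumors held 0 counts.

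Fitted together, the 3 growth factor receptors left most calls with CSF1R. Of 31 genes, 10 rose with CSF1R (7.91% of all tested genes did), 0 with CSF3R (0.267%) and 1, CD163, with FLT3 (0.69%), by edgeR's test. XCR1 had the steepest rise with CSF1R at equal CSF3R and FLT3, 2.12 ± 0.46 (adjusted p = 0.0027). On CSF1R alone its slope was 1.07 ± 0.42 (adjusted p = 0.0623), while r passed (0.60, adjusted p = 0.00517), and the slope was 1.71 ± 0.40 (adjusted p = 0.00358) without TC1088. The C1q chains rose by 0.95 to 1.08. MARCO fell, with a slope of -2.28 ± 0.82 (adjusted p = 0.046), where 13.1% of all tested genes fell. On CSF1R alone the slope of MARCO was 0.05 ± 0.76 (adjusted p = 0.97) and its rho 0.25. The fall thus appeared only at equal CSF3R and FLT3, and CSF1R and CSF3R themselves had a rho of 0.66. MARCO reached 10 counts in only 15 tumors. CD163 rose with FLT3 by 0.65 ± 0.15 (adjusted p = 0.0324), a call lost without TC538 or without TC1473. On CSF3R 7 genes that rose had an unadjusted p below 0.05, DESeq2 called 4, and edgeR 3 without TC538. DESeq2 called 5 on FLT3. The shares of all tested genes in these alternatives of the joint fit are not given here. With the first 2 components in the model none of the 3 receptors kept a call.

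Outside the list, the genes whose ranks over 30 tumors were most like CSF1R were COTL1, an actin-binding protein (rho 0.91), CYTH4, an exchange factor of leukocytes (0.90), MPEG1, a pore-forming protein of macrophages (0.89), MYO1F, a leukocyte myosin (0.89), and FERMT3, an integrin activator of blood cells (0.89), each with an adjusted p of 0.00131. For PTPRC, each with an adjusted p of 0.00033, they included DOCK10 (0.87), LTN1 (0.87), SAMD9L (0.86) and PAXBP1 (0.85), of which LTN1, a ubiquitin ligase of stalled ribosomes, and PAXBP1 are expressed in most cell types. For CSF3R they were DNM1 (0.80), SYNE3 (0.76), HCLS1 (0.75), PDGFRB (0.75) and TEK (0.74), the last 2 being receptors of pericytes and endothelium. FLT3 had ERAP1 (0.68), NEPRO, SRPK1, CFAP91 and TMEM232, none of which passed adjustment (ERAP1 adjusted p = 0.134).

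Other genes of the same pathways were counted from lists. Their counts are to be read against the shares of all tested genes that rose, 23.8% with PTPRC, 7.4% with CSF1R and 2.15% with CSF3R, and nothing particular to a list was tested. Of 9 partners and kinases of the oxidase, 6 rose with CSF1R, among them the small GTPase RAC2 (1.25 ± 0.24, adjusted p = 0.000971) and the kinase SYK (1.07 ± 0.35), with a median slope of 0.81 against 0.03 over all tested genes. On PTPRC 1 rose, BTK (0.47 ± 0.07), and 1 fell, CYBA (-0.57 ± 0.11, adjusted p = 0.000317). CYBA encodes the partner chain of CYBB, which rose with PTPRC.

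Among 11 further myeloid surface receptors, 4 rose with CSF1R, led by MPEG1 (1.12 ± 0.14, adjusted p = 1.45e-05), and 1 fell, HAVCR2 (-0.79 ± 0.26). On PTPRC 5 rose, led by CLEC7A, a receptor for fungal glucan (0.55 ± 0.12), and FCGR1A, a high-affinity receptor for IgG (0.53 ± 0.09). Of 14 chemokines, cytokines and their receptors, 6 rose with PTPRC, among them CXCL10 (0.68 ± 0.19) and CCL7 (0.51 ± 0.12), and 3 receptors rose with CSF1R, CCR2 (1.43 ± 0.28), CCR1 (0.96 ± 0.24) and CX3CR1 (0.59 ± 0.21). On CSF3R 4 of them rose, IL1B (0.51 ± 0.14), IL6 (0.50 ± 0.12), CCR2 and CCR1.

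Ligands and receptors of the same growth factor family were fewer. IL34, the alternative ligand of CSF1R, rose with CSF1R (0.73 ± 0.21, adjusted p = 0.0137), as did CSF2RA (0.71 ± 0.21), and FLT3LG did not pass (0.43 ± 0.18, adjusted p = 0.0744). Of 7 further neutrophil genes, MMP9 rose with CSF1R (2.00 ± 0.59, adjusted p = 0.0156) and with CSF3R (0.87 ± 0.21, adjusted p = 0.016), while MPO, the enzyme of primary granules, gave -0.09 ± 0.45 and -0.12 ± 0.19. Both held few counts in many tumors. The median normalized count of MMP9 was 11.9, with its highest, 1000, in TC1994. For MPO the median was 5.83, with 2 tumors at 0. Of 6 dendritic cell partners, CCR7 (1.36 ± 0.44), IDO1 (0.68 ± 0.15) and WDFY4 (0.36 ± 0.10) rose with PTPRC, and WDFY4 and THBD rose with CSF1R.

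Markers of other cells moved with the receptors as well, to be read against the same shares of 23.8%, 7.4% and 2.15%. T and NK cell genes rose with PTPRC, 6 of 9, led by CD3G (1.04 ± 0.15) and CD2 (0.75 ± 0.09, adjusted p = 1.6e-06), while on CSF1R their slopes ran from -0.20 to 0.97 and CD3E came closest to passing (0.97 ± 0.36, adjusted p = 0.0515). Their summed normalized count ran from 209 to 2300. Endothelial genes rose with CSF3R, 6 of 8, led by TIE1 (0.67 ± 0.12, adjusted p = 0.00278), with a summed normalized count from 2660 to 32300, and 3 of 8 rose with CSF1R. Fibroblast genes rose with CSF1R, 4 of 7, led by COL1A1 (2.03 ± 0.39, adjusted p = 0.000992), from 2430 to 325000 in sum. COL1A1 was highest in TC1601, the tumor highest in CSF1R, at a normalized count of 121000 against a median of 4870. Its slope without TC1601 is not given here. In none of these 3 lists was a gene at 0 in 15 or more tumors, but several T and NK genes held few counts. The median normalized count of CD3G was 6.63 and that of CD8A 8.63. CD3G and CD2 were highest in TC1473, the tumor highest in PTPRC, at 105 and 473, where the median of CD2 was 51.2. Of 6 osteoclast genes, ATP6V0D2 (1.84 ± 0.69), DCSTAMP, a fusion protein of osteoclasts and giant cells (1.19 ± 0.24, adjusted p = 0.000342), and CTSK (0.51 ± 0.11) rose with PTPRC. ATP6V0D2 and DCSTAMP were near the limit of detection in many tumors. Their median normalized counts were 2.96 and 2.47, and their highest 5380 in TC2289 and 128 in TC1994. The part of these other cell types in the slopes of the 34 genes was not tested.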

How the data were processed

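Total RNA from 30 primary canine thyroid tumors was sequenced. The authors deposited 1 table of raw counts of reads per Ensembl gene and tumor, made with STAR on CanFam3.1 per the submitters' processing notes. Whether the counting used strand is not given in the sources used here, so overlapping antisense genes cannot be told apart. 0 columns belonged to no tumor. Genes were matched by the symbol in the table.

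Slopes were fitted with edgeR 4.0.16 in R 4.3.3 (TMM, quasi-likelihood) over the 18711 genes that held 10 counts or more in 5 tumors or more. P-values were adjusted by Benjamini-Hochberg over all of these except the genes fitted on. Correlations were tested by 100000 two-sided permutations in Python 3.11.15. DESeq2 1.42.0, its size factors, no filter, a stricter filter (50 counts in 10 tumors), a pseudocount of 8, covariates and tumors left out were alternatives. Both fits were tested on simulated counts. Counting error alone limits a level: a count of 0 allows up to 3. P-values measure the spread between these tumors. All tumors formed 1 group.

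Named were all members with a row, and for each of 4 receptors the 5 other genes with the highest rho whose median normalized count was 100 or more, of which 1 is not reported here. From each list up to 4 genes with the largest and smallest slopes were named, and a few other list genes that passed were chosen after their values were seen. Members, lists and tests were chosen with earlier results of these data known. Leaving out TC538, TC1473 or TC1994, fitting 2 components and keeping 25 tumors were added after seeing the data. No gene or oligo sequence was used here.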

Additional observations from a re-analysis of the deposited data

How the results depend on the processing

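No paired analysis was possible because the tumors form a single group. Over the alternatives 0 of 2232 slopes of a gene reversed a call, and 1963 kept their side of the threshold, 130 lost and 139 gained a call. Under TMM scaling and under a pseudocount of 8, all 68 median levels moved by less than 1 SD over the tumors.

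With the first 2 components in the model, 20 of the 33 genes rose with PTPRC (12 without them), 0 fell (1 without) and 19 rose with CSF3R (9 without). Over all tested genes 303 instead of 7395 were called on PTPRC, 222 instead of 4135 on CSF1R, 327 instead of 771 on CSF3R and 4 instead of 80 on FLT3, and in the joint fit CSF1R went from 10 to 0 genes and FLT3 from 1 to 0. With components and without TC538, 22 rose and 0 fell on PTPRC and 19 rose on CSF3R, with 322, 246 and 347 of all genes called on PTPRC, CSF1R and CSF3R. Without TC1473 these were 230, 171 and 83, and 0 of the list fell on PTPRC. Without TC1994, 1 rose and 0 fell on PTPRC, 6 rose on CSF1R and 5 on CSF3R, with 29, 50 and 70 of all genes. In the 25 tumors 7 rose and 0 fell on PTPRC and 0 rose on CSF3R, with 145, 128 and 0 of all genes. The cause was not tested.

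Leaving out TC1994 without components gave 2 that fell on PTPRC, 1 that fell on CSF1R and 5 that rose on CSF3R. Without TC538, 2583 of all genes were called on CSF1R and 458 on CSF3R, and the joint fit gave 3 on CSF3R and 0 on FLT3. Without TC1473, 1 fell on CSF1R, 3 of all genes were called on FLT3, and FLT3 had 0 in the joint fit. Without TC1088, 1 rose on FLT3 and 50 of all genes were called. Without the 2 tumors farthest from the median, 2 fell on PTPRC, and 1504, 476 and 26 of all genes were called on CSF1R, CSF3R and FLT3. In the 25 tumors 4 rose on CSF3R, 3 of all genes were called on FLT3, and FLT3 had 0 in the joint fit. With the total count as a covariate, 0 fell on PTPRC, and 4850, 2033 and 407 of all genes were called on PTPRC, CSF1R and CSF3R.

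DESeq2 gave 1 that fell on CSF1R, 3 that rose on FLT3, 4 on CSF3R and 5 on FLT3 in the joint fit, and 1407 and 514 of all genes on CSF3R and FLT3. With no filter, 1349 and 891 of all genes were called on CSF3R and FLT3, and 3 of the list rose on FLT3, alone and in the joint fit. With the stricter filter 28 were called on FLT3, and with DESeq2's size factors 2 of the list in the joint fit. With a pseudocount of 8, 1 rose on FLT3. The first component of the variable genes left 1 of all genes on FLT3 and 0 of the list in the joint fit. By Spearman's rho 4 rose on CSF3R, with 159 of all genes called, and 0 of all genes on FLT3. Depth limits XCR1, MARCO, S100A12 and CSF3R most, where a tumor holds few counts.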
